A study of Rattus norvegicus with 23 samples.

Results

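The area postrema of the spontaneously hypertensive rat (SHR) was compared with that of the Wistar Kyoto rat (WKY), the inbred strain usually taken as its normotensive partner. The 10 arrays whose titles name these strains, 5 of SHR and 5 of WKY, were used out of 23 in the series, together with 4 arrays of Sprague Dawley controls that served as another level. All animals were male. Their ages were 10 to 13 weeks in SHR and WKY and 10 to 12 weeks in Sprague Dawley, and every array holds RNA pooled from 5 animals. No treatment is named for SHR, WKY or the Sprague Dawley controls. The p-values therefore measure the spread between pools. The 2 strains differ in genetic background as well as in blood pressure, so that these cannot be told apart here.

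The area postrema lies at the floor of the fourth ventricle in the medulla. Its capillaries are fenestrated, so its neurons and glia meet circulating hormones such as amylin and angiotensin II directly, and it projects to neighbouring nuclei that set blood pressure, nausea and food intake. Bulk tissue was measured, in which fewer cells of a type and less RNA per cell cannot be told apart. Transcript levels are array signals in units scaled by the authors to the same mean for every array. Differences are given as SHR minus WKY on the scale log2(signal + 16), on which 1 is a 2-fold change at high signal and less than the true ratio at low signal. Fold values are taken from this scale, so they are smaller than the ratio of the signals printed beside them. "Called" means an adjusted p below 0.05 in the limma test over all probe sets kept.

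Markers of the tissue were measured in both strains. Calcr, the calcitonin receptor that forms amylin receptors with Ramp proteins, read 140.1 ± 20.9 in SHR and 111 ± 15.4 in WKY (95% interval 0.08 to 0.52, adjusted p = 0.118). Th, the first enzyme of catecholamine synthesis, read 369.5 ± 35.1 in SHR and 371 ± 35.2 in WKY, and Dbh, which makes noradrenaline, read 217 ± 32.4 in SHR and 235 ± 43.7 in WKY. None of these 3 genes was called. Array medians ran from 41.69 to 44.48. The first principal component, with 28.7% of the variance, held all SHR arrays on the positive side (7.45 to 16.61) and all WKY arrays on the negative side (-16.93 to -10.93). The second, with 15.6%, set arrays 1 and 2 of both strains apart from arrays 3 to 5. RNA length, read as the log2 difference of Gapdh control signals from the 3' and 5' ends, overlapped between strains, at 0.041 to 0.403 in SHR and 0.03 to 0.205 in WKY.

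Cell type markers differed for a few classes. Summed signals of the 7 measured microglia and macrophage markers ran from 1138 to 1557 in SHR and from 1596 to 1812 in WKY, and of these C1qa and 1 probe set of Aif1 were lower in SHR. The other Aif1 probe set differed by -0.08 (adjusted p = 0.822). For the 8 fibroblast and meningeal markers the sums were 2345 to 3048 in SHR and 3342 to 4112 in WKY, where Col1a2, Igf2 and Fmod were lower. Col1a2 was the brightest, at 1227.5 ± 206.4 in SHR and 1948.8 ± 206.1 in WKY. At the probe sets read, Col1a1 (-0.18), Col3a1 (-0.28), Dcn (-0.19), Lum (-0.11) and Ogn (-0.14) were not called. The 3 other Ogn probe sets differed by -0.23 (adjusted p = 0.318), -0.41 (0.045) and 0.07 (0.852). The 4 measured choroid plexus markers summed to 1226 to 1372 in SHR and 823 to 999 in WKY, a difference carried by Enpp2, since Ttr (-0.34), Folr1 (-0.15) and Aqp1 (-0.25) had negative log2 differences and were not called. Sums for neurons (4124 to 4661 against 4158 to 4553), astrocytes, oligodendrocytes, endothelium and mural cells overlapped between the strains. The oligodendrocyte marker Mbp differed by -0.04 at the probe set read. Its other probe sets differed by 0.11 (adjusted p = 0.919) and -0.51 (0.0213, called). None of the 3 T cell markers passed the filter on low signal. Of the 3 B cell markers only 1 had a probe set with a single symbol, and it did not pass.

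Across the whole transcriptome most transcripts differed little between the strains. Of 31042 probe sets that are not Affymetrix controls, 18625 passed a filter on mean signal, and 954 of these (5.12%) were called, 411 (2.21%) higher and 543 (2.92%) lower in SHR. The median difference was 0.005 over all kept probe sets and the median size 0.09. For 89.6% of the kept probe sets the whole 95% interval lay within 0.5 of 0, and for 32.9% within 0.25. Among the calls 57 were smaller than 0.25, 523 lay between 0.25 and 0.5, 313 between 0.5 and 1, 51 between 1 and 2, and 10 at 2 or more. The share called rose with signal, from 3.14% in the dimmest of 5 equal signal classes to 7.22% in the brightest, while the median size of a call fell from 0.56 to 0.357. The SHR and WKY arrays did not overlap at 1187 probe sets (6.37%), 799 of which were called.

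**Figure D1:**
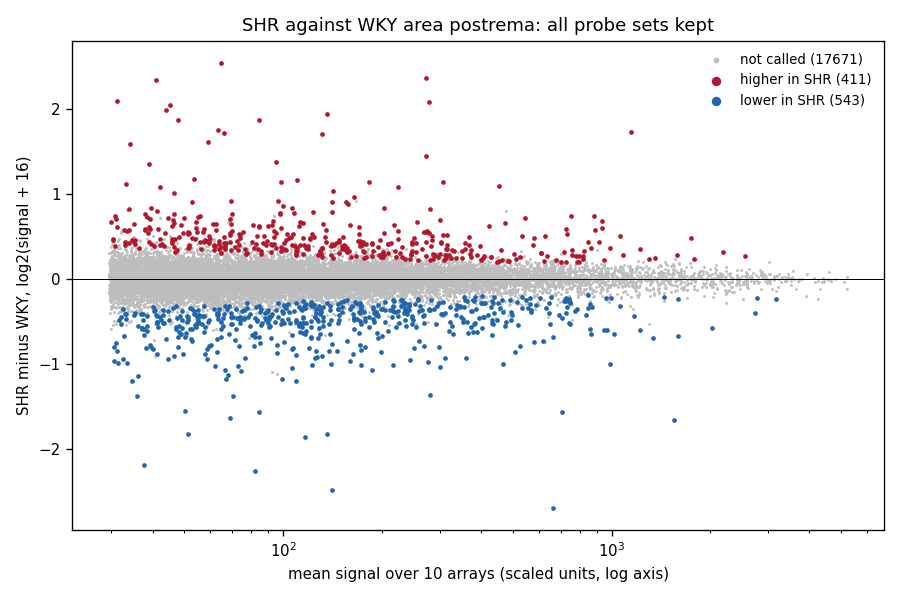
Log2 difference between SHR and WKY (vertical axis) against mean signal over the 10 arrays (horizontal log axis, scaled units) for the 18625 probe sets kept. Each point is a probe set, red where higher in SHR (411), blue where lower (543) and grey where not called. Calls of small size lie mainly at high signal, and both directions are found over the whole range.

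The median 95% interval reached 0.198 to either side of the difference. The genes given next were chosen as the most even, so that their narrow intervals follow from the choice. Mrpl15, a protein of the large mitochondrial ribosomal subunit, read 476 ± 11 in SHR and 476 ± 9.6 in WKY (95% interval -0.11 to 0.11). Psmb7, a catalytic subunit of the proteasome, read 857, 849, 858, 854 and 833 in the SHR pools and 859.6, 861, 849, 859 and 830.5 in the WKY pools. Its pools were interleaved. Rpl4 and Rps24, both cytosolic ribosomal proteins, Atp5f1d of ATP synthase, the peroxiredoxin Prdx2, the co-chaperone Ptges3, and the RNA-binding proteins Cnbp, Paip2 and Hnrnpa2b1 also had 95% intervals that ended within 0.11 of 0. At the other end, 61 called probe sets differed at least 2-fold, 30 higher and 31 lower. Of these, 27 carried no single gene symbol in the annotation used here.

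Read by 1 probe set each, 543 of 10472 genes (5.19%) were called, 243 (2.32%) higher and 300 (2.86%) lower in SHR, and the median difference over the 10472 genes was 0.011. SHR and WKY signals lay apart, without overlap, at 708 genes (6.76%). A gene could pass the filter through 1 strain alone, with the mean of the other strain below the cut-off of 29.53. Among others, this was so for Homer2, RT1-Bb, Clec3b, Epsti1 and Ankrd34b, low in SHR. It was also so for Agtr1b, Ephx2, Pxmp4, Agtrap and Trim16, low in WKY. Their separation and adjusted p are to be read with that limit. The accounts that follow concern genes ranked 13 to 32 by size in each direction and members of 34 lists by function. The ranked genes were taken from called genes without overlap, so the separation of their pools follows from the choice. Gene lists together held 1446 measured genes, of which 115 (7.95%) were called, 44 higher and 71 lower. The lists and their members were chosen with earlier results of these data known. A share above that of all genes may therefore follow in part from the choice, here and in each list below. Members past the 4 with the smallest p of a list were named after their values were seen, to account for all of its calls.

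Among the higher genes were a lipid-signalling enzyme and its receptor. Enpp2 encodes autotaxin, the secreted enzyme that makes lysophosphatidic acid, and read 1119, 1218, 1069, 1097 and 1061 in the SHR pools and 656, 648, 668, 702 and 629 in the WKY pools. The strains did not overlap, and the gene was 1.67-fold higher in SHR (log2 0.74, SE 0.054, adjusted p = 8.68e-08). Lpar1, a receptor for lysophosphatidic acid, read 180.0, 174, 122, 164 and 164 in the SHR pools and 80, 86.3, 91.9, 85 and 83.2 in the WKY pools. It too was higher in every SHR pool (log2 0.79, SE 0.091, adjusted p = 2.07e-05), and another of its probe sets rose by 0.63 (adjusted p = 0.00015). A single model of all 23 arrays did not call Enpp2 (adjusted p = 0.31), and in the Sprague Dawley controls it stood higher than in either strain, at 1797 ± 899.

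Cd9, a tetraspanin of the cell membrane, read 1024, 879.5, 1014, 839.9 and 966 in the SHR pools and 574, 507, 526, 618 and 573 in the WKY pools. All SHR pools lay above all WKY pools (1.67-fold, log2 0.74, SE 0.068, adjusted p = 2.19e-06). Amigo2, a cell adhesion protein of neurons, read 606, 766, 608, 794 and 654 in the SHR pools and 388, 419.7, 400.3, 418 and 413 in the WKY pools, again without overlap (log2 0.72, SE 0.075, adjusted p = 6.88e-06). Fstl5, a secreted protein of the follistatin-like family, read 347, 375, 428, 375 and 353 in the SHR pools and 235, 254, 207, 226 and 207 in the WKY pools. Its rise was 0.69 on the log2 scale (adjusted p = 7.64e-06). Chi3l1, a secreted chitinase-like glycoprotein, was 1.87-fold higher, with 219.9, 174, 212, 158 and 175 in the SHR pools and 102, 86.1, 90.9, 109 and 76.3 in the WKY pools. Its lowest SHR pool was still above its highest WKY pool. Angptl4, an inhibitor of lipoprotein lipase, rose from 98.4 ± 9.4 to 184 ± 36.6 (log2 0.79, adjusted p = 0.000179).

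Inside the cell, Actr8, an actin-related subunit of the INO80 chromatin remodelling complex, read 231, 225, 207, 204 and 242 in the SHR pools and 93.9, 108, 110.5, 108 and 109.6 in the WKY pools. This 1.95-fold rise had an SE of 0.072 on the log2 scale (adjusted p = 1.17e-07). Gabarapl1, a ubiquitin-like protein of autophagosomes and receptor trafficking, read 1135, 1285, 1104, 1009.6 and 1239.6 in the SHR pools and 689, 707, 686, 772 and 698 in the WKY pools. It was higher in every SHR pool (log2 0.68, adjusted p = 2.66e-06), although another probe set of the gene had a difference of -0.43 that was not called (adjusted p = 0.0595). Prph, the intermediate filament peripherin of neurons with peripheral axons, read 71.3, 60.2, 86.4, 66.5 and 78.6 in the SHR pools and 36, 34.2, 41.8, 37.3 and 37.6 in the WKY pools. It was higher in every SHR pool (log2 0.73, SE 0.096, adjusted p = 0.0001), but was not called in a single model of all 23 arrays (0.253). Prph is also 1 of 2 measured markers of cholinergic neurons of neighbouring nuclei, whose sums were 297 to 364 in SHR and 251 to 319 in WKY. Their part in its rise was not tested. Dguok, the mitochondrial deoxyguanosine kinase, rose by 0.65 (adjusted p = 0.000164). The chloride channel family gene Clic2 rose by 0.71 (0.000763), Mettl7a, a methyltransferase family gene, by 0.82 (1.27e-05), and St7l by 0.90 (4.53e-06), the adjusted p standing in brackets. Cryzl2 (log2 0.72, adjusted p = 0.000299) and the pseudogene Rrs1-ps9 (log2 0.92, adjusted p = 3.38e-07) were also higher.

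On the side of lower genes, Rab8b, a small GTPase of vesicle transport to the plasma membrane, read 108, 112, 113, 119.6 and 93.7 in the SHR pools and 244, 228, 251, 222 and 229 in the WKY pools. The SHR pools lay at less than 120 and the WKY pools at more than 222, a 2.01-fold difference (log2 -1.0, SE 0.072, adjusted p = 6.93e-08). A second Rab8b probe set fell by 0.74 (adjusted p = 4.94e-06). Epha4, a receptor for ephrins in axon guidance and astrocytes, read 116, 141, 122, 128 and 94.6 in the SHR pools and 238, 257, 212, 202 and 214 in the WKY pools. The pools were separate, and its 2 probe sets fell by 0.83 and 0.79 (adjusted p = 1.35e-05 and 4.81e-06). Rragd, a Rag GTPase that signals amino acid supply to mTORC1, fell by 0.93 (adjusted p = 5.14e-06). Gulp1, an adaptor of phagocytosis, fell by 0.84 (7.62e-06).

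C1r, a protease of the first complement component, read 106, 99.9, 89.9, 112 and 109 in the SHR pools and 210.2, 190.2, 199.6, 232 and 249 in the WKY pools. No SHR pool reached the lowest WKY pool (1.94-fold lower, log2 -0.96, SE 0.082, adjusted p = 8.59e-07). Tac1, the precursor of substance P, read 108, 155, 143, 144 and 131 in the SHR pools and 289, 318, 218, 235 and 242 in the WKY pools. It fell in every pool (log2 -0.86, SE 0.103, adjusted p = 4.13e-05), and the Sprague Dawley controls were lower still at 76.7 ± 14.1. Kcna5, a voltage-gated potassium channel of the Kv1 family, read 118, 138, 107, 105 and 85.6 in the SHR pools and 242, 255, 186, 184 and 213 in the WKY pools, separate between the strains (log2 -0.87, SE 0.11, adjusted p = 6.74e-05). Rlbp1, which binds retinaldehyde in glia of the retina and brain, read 83.6, 66.3, 93.3, 72.1 and 65.2 in the SHR pools and 173, 211, 149, 149 and 162 in the WKY pools, 2.01-fold lower in SHR (log2 -1.0, adjusted p = 6.88e-06). Pygm, a glycogen phosphorylase found in muscle and astrocytes, read 103, 91.9, 89.8, 66 and 89.4 in the SHR pools and 221, 215, 174, 164 and 182 in the WKY pools (log2 -1.0, SE 0.103, adjusted p = 6.64e-06). Its other probe sets differed by -0.29 (adjusted p = 0.251) and -0.51 (0.00696), the latter called as well.

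Stat3, the transcription factor downstream of interleukin 6 and leptin receptors, was lower at 1 probe set, with 89.6, 77.1, 80.5, 96.7 and 67.8 in the SHR pools and 185, 189, 145, 137 and 196 in the WKY pools (log2 -0.92, adjusted p = 2.08e-05). At the other Stat3 probe set the difference was 0.04 (0.946), so the gene as a whole cannot be called lower. Ythdf2, a reader of methylated adenosine in mRNA, fell by 0.92 (adjusted p = 2.66e-06) at 1 probe set and differed by -0.20 (0.243) at another. Naxd, which repairs hydrated NADPH, fell by 0.84 (9.08e-05), with 0.42 (0.0648) at the other. Single probe sets were lower for Pola2, a subunit of DNA polymerase alpha (log2 -0.85, adjusted p = 0.00131), Clec3b, which encodes tetranectin (log2 -0.94, adjusted p = 0.000404), Ankrd34b (log2 -0.94, adjusted p = 2.08e-05), the pseudogene Tmsb10-ps5 (log2 -0.90, adjusted p = 4.5e-05) and Etl4 (log2 -0.86, adjusted p = 0.0114). Etl4 lost the call with the Gapdh ratio as a covariate (adjusted p = 0.0587).

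**Figure D2:**
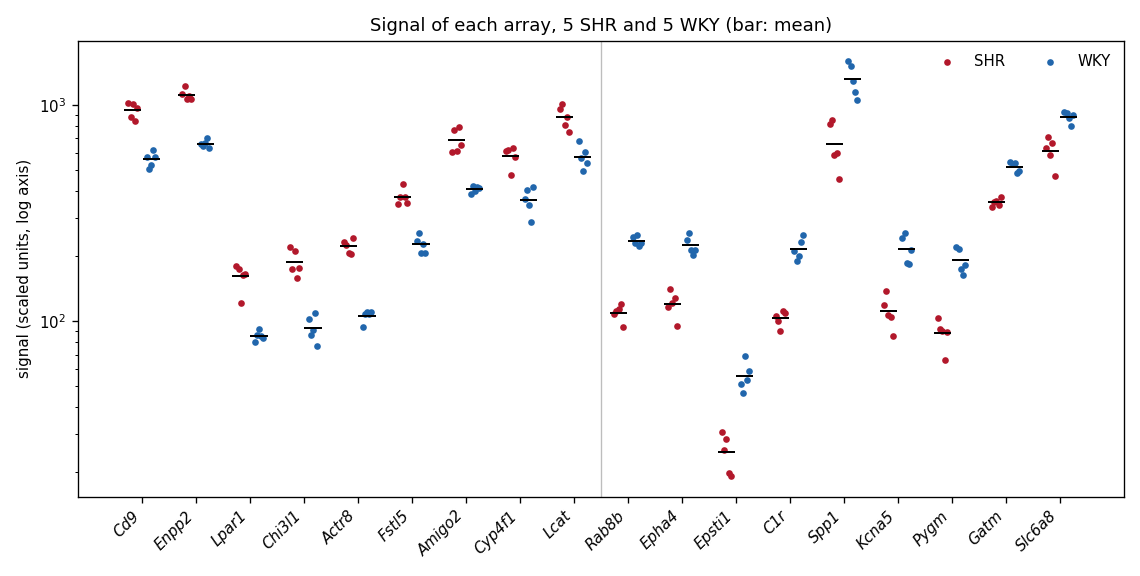
Signal of each array (vertical log axis, scaled units) for 9 genes higher and, right of the vertical line, 9 genes lower in SHR. Each point is a pool of 5 animals, red for SHR and blue for WKY, and the bar is the mean of 5. In all 18 genes the strains do not overlap, which was a condition of choice for those taken by rank of size.

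Agreement between probe sets limited how many of these differences could be assigned to a whole gene. A gene with a single kept probe set could not be checked in this way. Probe sequences were not compared with the sequence of either strain. Of 2516 genes with at least 2 kept probe sets, 222 had at least 1 call, and in 31 of these (14%) every probe set was called. In 180 a single probe set was called, and in 155 (69.8%) all probe sets had the same sign. Agtrap, which binds the angiotensin II type 1 receptor, rose by 1.17 and 1.87 (adjusted p = 0.00694 and 4.51e-06), although the first value lost its call with a pseudocount of 1 (adjusted p = 0.0582). Pxmp4, a peroxisomal membrane protein, rose by 1.72 and 1.59, and Ccdc3, a secreted protein, by 1.08 and 0.68. Dcaf6, a substrate receptor of ubiquitin ligases, rose by 0.65 and 0.60. Car14, a carbonic anhydrase at the cell surface, fell by 1.03 and 0.75, and Me1, the cytosolic malic enzyme that supplies NADPH, by 0.64 and 0.69. In Chmp1b and Ntm the probe sets were called in opposite directions.

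In the list of collagens and matrix all calls were lower in SHR. Of its 59 measured members 10 fell (16.9%) and 0 rose, against 2.86% and 2.32% over all genes, and 46 had a negative difference, with a median of -0.11 against 0.011 over all genes. Col1a2, a chain of type I collagen, read 1428, 1337, 1037, 1361 and 975 in the SHR pools and 2025, 2111, 1982, 1589.6 and 2036 in the WKY pools. It fell at both of its probe sets, by 0.67 and 0.65 (adjusted p = 0.00151 and 0.00201). Spp1, osteopontin, a secreted matrix and cytokine-like protein, read 814, 852, 585, 596 and 455 in the SHR pools and 1589.6, 1517, 1287, 1141 and 1056 in the WKY pools. Its pools did not overlap (log2 -1.0, SE 0.176, adjusted p = 0.00696). Col27a1 (log2 -0.89, adjusted p = 0.00167) and Col11a1 (log2 -0.61, adjusted p = 0.0007) are fibrillar collagens, Col15a1 (log2 -0.52, adjusted p = 0.00551) lies at basement membranes, and Lamc1 (log2 -0.42, adjusted p = 0.00554) is a laminin chain, with -0.09 (0.771) at its other probe set.

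Fmod, a small proteoglycan that binds collagen fibrils, read 218, 195, 176, 184 and 145 in the SHR pools and 260.4, 270.4, 265, 272 and 264 in the WKY pools, and fell by 0.51 (adjusted p = 0.000806). Timp2, an inhibitor of matrix metalloproteinases, fell by 0.34 (0.00352), with -0.21 (0.223) at its other probe set. Acan, the proteoglycan aggrecan of perineuronal nets, fell by 0.52 (0.00299), a call lost with all 23 arrays in 1 model (0.157). The tenth, Hspg2, was near the threshold. Leaving out single arrays gave 9 to 12 falls in the list. Col1a2, the brightest of the fibroblast and meningeal markers, and Fmod belong to this list. The summed markers were 2345 to 3048 in SHR and 3342 to 4112 in WKY. Their part in the lower matrix genes was not tested. Sprague Dawley controls summed to 4070 to 5147, overlapping WKY at the low end.

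In the list of growth factor and cytokine signalling 7 of 64 genes were lower (10.9%) and 0 higher, against 2.86% and 2.32% of all genes, with a median of -0.04. Il1r1, the signalling receptor of interleukin 1, read 29.2, 32.3, 43.8, 32.4 and 37.2 in the SHR pools and 72.7, 54.9, 70.1, 64.3 and 64.3 in the WKY pools. It was lower in every SHR pool (log2 -0.68, SE 0.1, adjusted p = 0.000354). Il6r, the ligand-binding interleukin 6 receptor, fell by 0.50 (adjusted p = 0.013). Igf2, a growth factor made by meninges and choroid plexus, fell by 0.53 (0.00466), and Igf2r, which clears it into lysosomes, by 0.36 (0.0103). Fgfr2, a fibroblast growth factor receptor of astrocytes, fell by 0.28 (0.0146) at 1 probe set and differed by -0.03 (0.953) at another. The remaining called members were Stat3, described above, and Tgfbr1, whose call was near the threshold. Igf2 is also 1 of the fibroblast markers whose sum was lower in SHR.

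Genes of antigen presentation and interferon moved in both directions. Of 43 measured members 2 rose and 7 fell (20.9% called, against 5.19% of all genes, 2.32% higher and 2.86% lower), with a median of -0.05. Class I molecules present peptides to CD8+ T cells and class II molecules to CD4+ T cells, and Ifi44, Ifi44l and Epsti1 are interferon-induced genes. Ifi44l read 37, 34.6, 25.5, 36.8 and 41.1 in the SHR pools and 123, 138, 128, 146 and 136 in the WKY pools. The SHR pools lay at less than 42 and the WKY pools above 122 (2.95-fold lower, log2 -1.56, SE 0.093, adjusted p = 6.13e-09). Its neighbour Ifi44 read 139, 124, 105, 156 and 105 in the SHR pools and 214, 254, 245, 196 and 235 in the WKY pools, lower in every SHR pool (log2 -0.79, SE 0.1, adjusted p = 6.06e-05). Epsti1, outside the list but among the larger falls, read 30.6, 25.2, 28.4, 19.9 and 19.2 in the SHR pools and 51.4, 46.3, 68.7, 53.2 and 58.9 in the WKY pools (log2 -0.82, SE 0.113, adjusted p = 0.00017).

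The promoters of these 3 genes are shown because interferon-induced genes often carry the interferon-stimulated response element. They are the 200 bases before the annotated start in RefSeq (build GRCr8), on the strand of the gene. Capitals mark matches to a core of that element, a pair of GAAA half-sites with 2 bases of any kind between them, on either strand (TTTC where it is read from the other strand).
Ifi44, chr2:243303841-243304040, minus strand: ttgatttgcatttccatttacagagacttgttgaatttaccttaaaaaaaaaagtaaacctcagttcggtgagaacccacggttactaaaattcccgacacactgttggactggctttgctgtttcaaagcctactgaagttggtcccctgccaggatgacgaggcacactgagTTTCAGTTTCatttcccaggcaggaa
Ifi44l, chr2:243328523-243328722, plus strand: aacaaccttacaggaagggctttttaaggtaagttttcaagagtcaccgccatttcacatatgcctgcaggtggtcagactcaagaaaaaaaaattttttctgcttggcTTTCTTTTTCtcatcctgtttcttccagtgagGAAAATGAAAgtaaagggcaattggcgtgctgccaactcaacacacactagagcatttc
Epsti1, chr15:59693201-59693400, plus strand: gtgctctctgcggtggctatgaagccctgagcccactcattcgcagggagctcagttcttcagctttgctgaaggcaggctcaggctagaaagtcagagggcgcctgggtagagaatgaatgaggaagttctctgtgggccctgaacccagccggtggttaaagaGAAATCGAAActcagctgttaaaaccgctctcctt
Ifi44 and Epsti1 held 1 match each and Ifi44l held 2. In the 250 bases before the start the motif was found in 3.41% of 33469 promoters, in 2.74% of the 8734 measured genes with a promoter, in 2.55% of 196 genes called higher and in 4.9% of 245 genes called lower. Within the list it was present in 3 of 9 called members and in 10 of 26 members that were not called. A match is a sequence of letters and does not show that a factor binds there.

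Class I genes of the RT1-CE group, which lie side by side in the major histocompatibility complex, went opposite ways. RT1-CE16 read 236, 259, 199.5, 229 and 205 in the SHR pools and 36.9, 56, 41.5, 58.6 and 42.6 in the WKY pools, 3.85-fold higher in SHR (log2 1.94, SE 0.103, adjusted p = 1.4e-09). RT1-CE5 read 43.7, 42.6, 47.9, 32.8 and 45.4 in the SHR pools and 119, 74.2, 119.7, 98.1 and 105 in the WKY pools, 2.02-fold lower (log2 -1.02, SE 0.114, adjusted p = 1.53e-05). RT1-CE10 fell by 0.56 (adjusted p = 0.00774), from 48.3 to 71.9 in WKY to 23.4 to 39.6 in SHR. These probe sets carry the suffix that Affymetrix gives to probes shared by similar sequences, and the genes are near copies of one another, so the assignment to a single RT1-CE gene is uncertain.

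In the class II region, RT1-Bb, a beta chain, read 11.4, 8.8, 12.3, 12.6 and 18.7 in the SHR pools and 70.6, 72.1, 57.7, 49.9 and 44.8 in the WKY pools (log2 -1.38, SE 0.127, adjusted p = 2.07e-06). RT1-DMa, which helps to load peptides, fell by 0.51 (adjusted p = 0.00244). Psmb8, a subunit of the immunoproteasome, rose by 0.43 (0.00351), and B2m, the last of the list's 7 falls, was near the threshold. C1qa, a complement subunit made by microglia, read 785, 753, 621, 603 and 683 in the SHR pools and 914, 938, 805, 828 and 902 in the WKY pools (log2 -0.35, adjusted p = 0.0078). Ctss, a protease of antigen-presenting cells, fell by 0.21 (0.014), and without trend and robust settings its adjusted p was 0.0733. The 7 measured microglia and macrophage markers all had negative differences, with a median of -0.28 and 2 calls. Their sums, 1138 to 1557 in SHR and 1596 to 1812 in WKY, did not overlap. Sprague Dawley controls summed to 1047 to 1142. The part of these markers in the lower immune genes was not tested.

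In the panel of receptors and peptides of the tissue 2 of 20 measured genes rose and 1 fell (15%, against 5.19% of all genes), with a median of 0.13. Cartpt, the precursor of a peptide that lowers food intake, read 2035, 2141, 1849, 2227 and 1913 in the SHR pools and 1478, 1515, 1408, 1416 and 1421 in the WKY pools. Every SHR pool was higher (1.40-fold, log2 0.48, SE 0.056, adjusted p = 2.22e-05). Agtr1b, 1 of the rat's angiotensin II receptors of type 1, read 56.6, 43.8, 48.4, 45.9 and 44 in the SHR pools and 14.3, 26.1, 18.3, 23.4 and 18.8 in the WKY pools, also without overlap (log2 0.82, SE 0.111, adjusted p = 0.000121). Its close relative Agtr1a read 55.2 ± 4.3 in SHR and 59.6 ± 10.7 in WKY (log2 -0.08, 95% interval -0.29 to 0.14) and was not called. Since both genes are alike in sequence, their probe sets may share signal. The single fall, Npr1, a receptor of natriuretic peptides, was near the threshold.

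Ramp2, a partner of calcitonin-family receptors, had a difference of 0.28 (95% interval 0.09 to 0.47, adjusted p = 0.0914), and it passed with the split of arrays 1 and 2 from 3 to 5 as a block (0.0176). Calcr passed in the same fit (0.0367), although its other probe set differed by -0.15 (adjusted p = 0.705) in the main fit. Ramp1 (-0.47), Ramp3 (0.18), Casr, the calcium-sensing receptor (0.19), the peptide precursors Cck (0.26), Npy (0.19) and Gal (0.30), the vasopressin receptor Avpr1a (0.21) and angiotensinogen, Agt (0.09), were not called. Glp1r, the receptor of glucagon-like peptide 1, read 35.9 ± 5.9 in SHR and 35.3 ± 7 in WKY (95% interval -0.23 to 0.26), and Fos, the immediate early gene, 74.5 ± 13.4 in SHR and 71.3 ± 8.3 in WKY (95% interval -0.18 to 0.26). For Gal and Adcyap1 the intervals were wide, -0.45 to 1.04 and -0.81 to 0.47. The receptor Tacr1 of substance P differed by 0.06 (95% interval -0.15 to 0.26), although its ligand's precursor Tac1 fell.

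Vascular tone and endothelium had 2 rises and 4 falls among 29 genes (20.7%, against 5.19% of all genes). Both rises, Agtr1b and Agtrap, belong to the angiotensin system. Agtrap read 109.8, 90.1, 62.2, 60.9 and 75.7 in the SHR pools and 29.5, 33.7, 38.4, 6.1 and 30.5 in the WKY pools. The strains did not overlap, but WKY array 4 was far below the rest. The falls were Ptgs2, Tbxas1, Npr1 and Mas1, all near the threshold, and leaving out single arrays gave 0 to 4 falls. The endothelial markers summed to 310 to 377 in SHR and 287 to 455 in WKY and none of the 4 measured was called. Plvap, a diaphragm protein of fenestrated capillaries, read 106 ± 17.7 in SHR and 97.9 ± 18.1 in WKY (95% interval -0.15 to 0.34).

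In the list of sodium, chloride, proton and calcium transport 4 of 39 genes fell and 0 rose (10.3%, against 5.19% of all genes), with a median of -0.08. Car14 read 193, 248, 165, 197 and 159.7 in the SHR pools and 450.5, 420.5, 362, 407 and 398 in the WKY pools, and Mcub, which restrains calcium uptake by mitochondria, 59.6, 61.5, 59.4, 63.6 and 55.1 in the SHR pools and 164, 171, 144, 148 and 164 in the WKY pools. In both the SHR pools lay below the WKY pools. Fxyd5, a regulator of the sodium pump, fell by 0.55 (adjusted p = 0.000458), and Atp2b3, a plasma membrane calcium pump, was near the threshold. Of 24 genes in the list of voltage-gated potassium channels 2 fell (8.3%), the channel Kcna5 and, near the threshold, Kcnip3, a calcium sensor. Among 24 sodium, calcium and HCN channel genes none was called by limma, with 5 at an unadjusted p below 0.05, and among 14 inward rectifier and two-pore potassium channel genes none, with 1 such gene. Over all kept probe sets 3221 of 18625 had an unadjusted p below 0.05.

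Homer2, a scaffold that links metabotropic glutamate receptors to calcium stores, read 16.3, 18.8, 22.8, 11.6 and 26.7 in the SHR pools and 38.2, 44.7, 46.4, 43.9 and 39.2 in the WKY pools, lower in every SHR pool (log2 -0.74, SE 0.12, adjusted p = 0.000766). Ppp1r1b, also known as DARPP-32, an inhibitor of protein phosphatase 1 in dopamine signalling, read 263, 285, 297, 286 and 274 in the SHR pools and 481, 434, 431, 371 and 525 in the WKY pools (log2 -0.64, SE 0.078, adjusted p = 4.5e-05). Cadps2, a priming factor for dense-core vesicles, rose by 0.43 (adjusted p = 0.0103) and was the only call among 35 genes of vesicle release (2.9%). Of 14 genes in the list of GABA and glycine receptors 2 rose (14.3%, against 5.19% of all genes), Gabarapl1 and Gphn. Both encode associated proteins, and no receptor subunit in the list was called. Of 24 genes in the list of glutamate receptors the subunit Gria1 rose and the scaffold Homer2 fell (8.3%). Gphn and Gria1 were near the threshold.

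Axon guidance and cell adhesion had 2 rises and 5 falls of 61 genes (11.5%, against 5.19% of all genes), with a median of -0.07. Thy1, a surface glycoprotein of neurons, read 257, 239, 234, 262 and 269 in the SHR pools and 443, 455, 372, 394 and 357 in the WKY pools. The WKY pools were all higher (log2 -0.64, SE 0.073, adjusted p = 1.84e-05), although a second probe set differed by -0.31 (adjusted p = 0.208). Opcml, a member of the IgLON family of adhesion proteins, fell by 0.56 (0.00307), with -0.30 (0.079) at its other probe set. Efnb3, a ligand of ephrin receptors, rose by 0.37 (0.00104), while the ephrin receptor Epha4 fell. Sema5a, Plxnb1 and Ntm were near the threshold.

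Of 37 peroxisomal genes 4 rose and 1 fell (13.5%), against 2.32% higher and 2.86% lower of all genes. Ephx2, the soluble epoxide hydrolase, read 108, 97, 111, 104 and 104 in the SHR pools and 16.1, 18.4, 38.6, 27.4 and 7.1 in the WKY pools, and Pxmp4 97.9, 137, 120.5, 91 and 104 in the SHR pools and 22.8, 21.7, 26.2, 20.3 and 19.7 in the WKY pools. Both sets of pools were separate. Ech1, an isomerase of fatty acid oxidation, rose by 0.29 (adjusted p = 0.0025), and Pex7, the receptor that imports proteins with a type 2 targeting signal, by 0.40 (0.00845). Crot, which moves medium-chain fatty acids out of peroxisomes as carnitine esters, read 282, 296, 299, 317 and 299 in the SHR pools and 466, 476, 434, 439 and 431 in the WKY pools and fell by 0.56 (5.65e-06). The list median was 0.03.

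Among 60 genes of glutathione and detoxification 4 rose and 2 fell (10%, against 5.19% of all genes). Gstm1 and Gstm5, transferases of the mu class encoded in the same gene cluster, went opposite ways. Gstm1 read 759, 760.4, 641, 656 and 574 in the SHR pools and 539, 539, 410.3, 479 and 443 in the WKY pools and rose by 0.48 (adjusted p = 0.00277). Gstm5 read 2363, 2649, 2194, 2379.8 and 2237 in the SHR pools and 3349.6, 3369, 2876, 3027 and 2925 in the WKY pools and fell by 0.39 (0.000593). These relatives are similar in sequence, and shared probe signal was not tested. Cyp4f1, a cytochrome P450 that hydroxylates fatty acids and eicosanoids, read 613, 617, 472, 630.0 and 575 in the SHR pools and 369, 404, 344, 287 and 418 in the WKY pools. All SHR pools were higher (log2 0.66, SE 0.096, adjusted p = 0.00038). Gstt3, a theta class transferase, rose by 0.37 (0.00532), and Gsta1 was near the threshold.

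Lipid synthesis genes numbered 2 rises and 4 falls in 56 (10.7%, against 5.19% of all genes). Lcat, which esterifies cholesterol on lipoproteins, read 952, 1005, 809, 878 and 750.1 in the SHR pools and 678, 565, 496, 605 and 539 in the WKY pools and rose by 0.59 (adjusted p = 0.000325). Elovl6, an elongase of saturated fatty acids, rose by 0.66 (0.000371), with 0.28 (0.462) at another probe set. Me1 read 700.5, 775, 699.5, 566 and 638 in the SHR pools and 1039, 1152, 1027, 1028 and 1052 in the WKY pools, lower in every SHR pool (log2 -0.64, SE 0.071, adjusted p = 1.35e-05), and Cers4, a ceramide synthase, fell by 0.55 (0.0133). Scd and Agpat3 were near the threshold.

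The list of amino acid, one-carbon and transmitter metabolism had 4 rises and 5 falls in 66 genes (13.6%, against 5.19% of all genes), with a median of -0.03. Gatm, the first enzyme of creatine synthesis, read 338, 354, 357, 346 and 374 in the SHR pools and 545, 533, 538, 484 and 492 in the WKY pools. Slc6a8, the creatine transporter, read 629, 708, 589, 663 and 470.4 in the SHR pools and 924, 917, 872, 797 and 899.9 in the WKY pools. Both were lower in every SHR pool and fell by 0.53 and 0.53 on the log2 scale (adjusted p = 1.04e-05 and 0.00103). A second Slc6a8 probe set differed by -0.53 and was not called (0.056). Cbs, which makes cystathionine from homocysteine and serves as an astrocyte enzyme, fell by 0.52 (8.77e-05), from 876 ± 73.5 to 607 ± 47.6. Psat1, of serine synthesis, rose by 0.33 (0.0109), and Gch1, the first enzyme of tetrahydrobiopterin synthesis, by 0.40 (0.0113), with 0.13 (0.773) at its other probe set. Abat, which breaks down GABA, fell by 0.45 (0.00123) at 1 of 3 probe sets, the others differing by 0.02 (0.958) and -0.02 (0.974). Gad2, Pts and Slc6a9 were near the threshold.

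In mitochondrial complexes I to III 2 of 46 genes fell (4.3%, near the 5.19% of all genes), Ndufv3 (log2 -0.53, adjusted p = 0.00055), with -0.01 (0.969) at its other probe set, and Sdha, a succinate dehydrogenase subunit (log2 -0.33, adjusted p = 0.00396). In complexes IV and V 0 of 30 genes were called by limma, with 2 at an unadjusted p below 0.05, against 3221 of all 18625 kept probe sets. Among 44 genes of glycolysis and glucose entry Pygm and Pdk3 fell and Slc16a1 rose (6.8%). Cytosolic ribosomal proteins had 1 call in 39 (2.6%), Rpl21. Pdk3, Slc16a1 and Rpl21 were near the threshold.

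Among genes of telomeres and DNA repair 2 of 44 rose and 1 fell (6.8%, against 5.19% of all genes). Terf2ip, of the telomeric shelterin complex, read 298, 326, 404, 361 and 372 in the SHR pools and 1067, 915, 1152, 1122 and 1066 in the WKY pools, with no overlap. Lig4, the ligase of end joining, rose by 0.53 (adjusted p = 0.00241), and Rtel1, a helicase of telomeres, by 0.50 (0.014). Of 75 chromatin genes (4% called) 2 rose, Actr8 and, near the threshold, Crebbp. Setd1b, a histone methyltransferase, read 17.2, 46.6, 34.3, 38.9 and 26.4 in the SHR pools and 93.9, 109, 109, 104 and 122 in the WKY pools and fell. In the cell cycle list of 25 genes (16% called) Mcm2, a subunit of the replicative helicase, fell by 0.52 (0.00696), and Ccnd3, Ccne2 and Bub3 rose near the threshold. With single arrays left out, 0 to 2 of those 3 rises were called.

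Ubiquitin ligases and deubiquitinases had 4 rises and 4 falls in 95 (8.4%, against 5.19% of all genes). Trim16 rose by 1.01 (adjusted p = 1.31e-05) and Fbxo6, of glycoprotein disposal, by 0.25 (0.0108). Mdm4, a regulator of p53, fell by 0.46 (0.00119), Nedd4l, which targets the epithelial sodium channel, by 0.41 (0.00351), Rnf149 by 0.38 (0.00295; -0.13 and 0.588 at its other probe set), and Ube2r2 by 0.28 (0.015). Cul4b and Usp8 were near the threshold. Of 69 kinase and phosphatase genes 3 fell and 1 rose (5.8%). Pik3r1, a regulatory subunit of PI3 kinase, fell by 0.70 (0.00466), and Dusp1, a phosphatase of MAP kinases, by 0.46 (0.0113) with pools that overlapped. Ppp1r1b was the third fall, and the rise, Ppp2r2b, was near the threshold.

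Cytoskeletal genes had 4 rises and 2 falls in 83 (7.2%, against 5.19% of all genes), led by Fry, a microtubule-binding protein, which read 413, 427, 406, 387 and 392 in the SHR pools and 109.8, 115, 147, 175 and 154 in the WKY pools. All SHR pools lay above 386 and all WKY pools below 176. Prph rose as given above, and Tuba4a, Tpm1, Myh9 and Gsn were near the threshold. In the lysosome list of 56 genes (3.6% called) Creg1, a secreted glycoprotein of the endolysosomal pathway, rose by 1.03 (adjusted p = 1.15e-06), with 0.31 (0.171) at its other probe set, and Ctss fell. The proteasome list of 42 (4.8% called) held the rise of Psmb8 and the fall, near the threshold, of Psma1. Cyclic nucleotide signalling held Gucy1a1 and Gucy1b1, both near the threshold, among 27 genes (7.4% called).

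Several lists held no call by limma at the probe set read for each gene, although 1 circadian clock gene was called at another. This was so for 51 heat shock proteins and co-chaperones, 10 of which had an unadjusted p below 0.05, 36 G protein subunits and RGS proteins with 3 such genes, 19 circadian clock genes with 1, and 11 adrenergic, cholinergic, serotonin and dopamine receptors with 1. Medians of these 4 lists were 0.04, -0.02, -0.01 and -0.04. Of all genes 5.19% were called, and 3221 of the 18625 kept probe sets had an unadjusted p below 0.05 by limma.

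**Figure D3:**
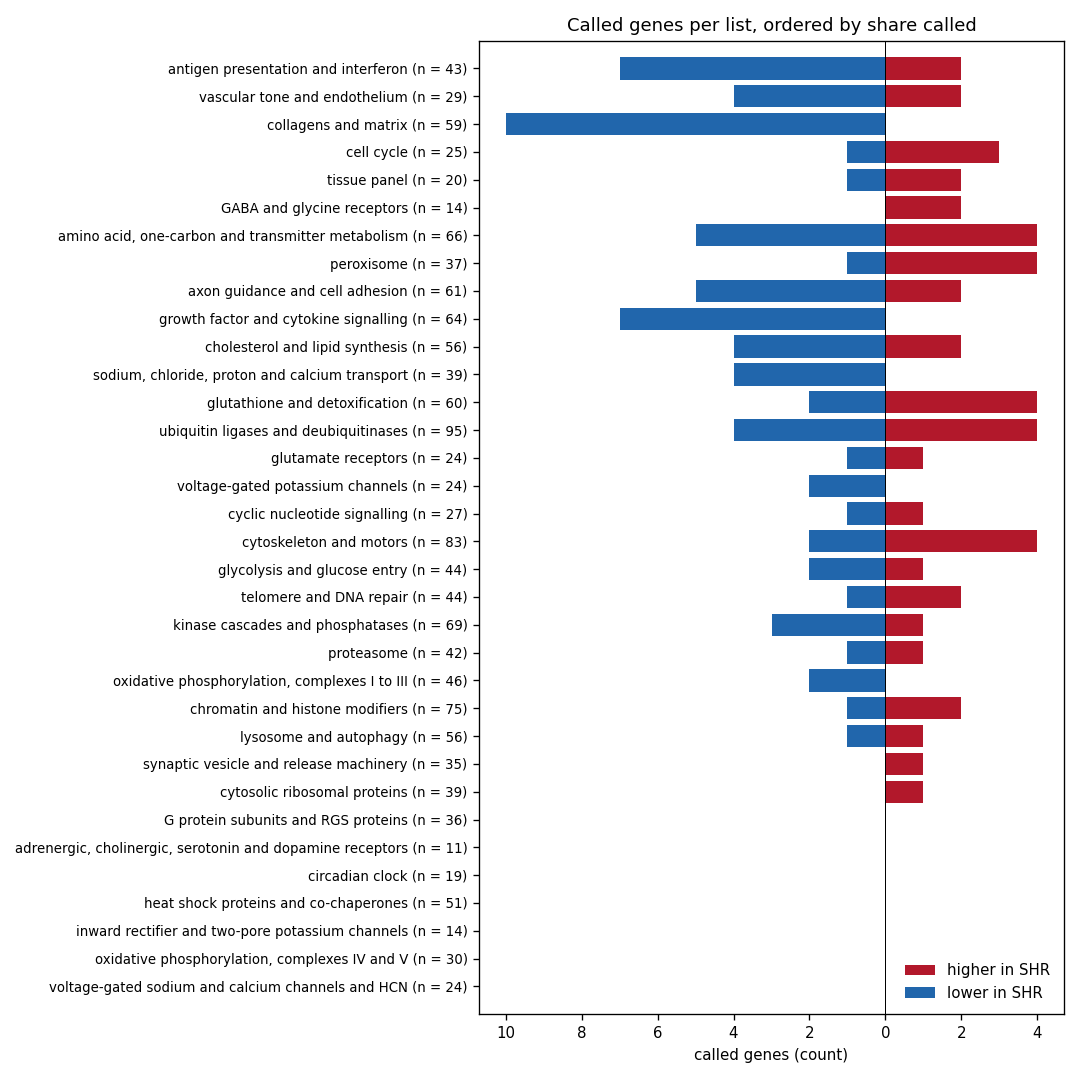
Number of called genes per list (horizontal axis), red to the right for genes higher and blue to the left for genes lower in SHR, with the number of measured genes in brackets. Lists are ordered by the share called. Collagens and matrix had 10 lower and 0 higher, and antigen presentation and interferon 7 lower and 2 higher. The bottom 7 lists had 0.

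Genes with a call are given next at ranks spread through the list of calls, where a difference is of ordinary size. Ets2, a transcription factor, read 192, 213, 171, 166 and 156 in the SHR pools and 245, 277, 236, 251 and 239 in the WKY pools (log2 -0.45, SE 0.08, adjusted p = 0.00194). Zfp423, a zinc finger protein of neural precursors, read 822, 934, 771, 908 and 797 in the SHR pools and 616, 650.1, 735, 619.8 and 708 in the WKY pools (log2 0.34, SE 0.068, adjusted p = 0.00509). At these probe sets the strains were separate at a size below 0.5, but the other Zfp423 probe sets differed by 0.42 (0.0157), 0.05 (0.891) and -0.11 (0.829). Pet100, which helps to assemble cytochrome oxidase, rose by 0.41 (adjusted p = 0.0141) with overlapping pools and 0.27 (0.114) at its other probe set, and lost the call with the Gapdh ratio as a covariate (0.0562). Gpr84, Smarca1 and Ttll1, from further down the ranks, were near the threshold.

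Called genes were also placed in the order of genes along the chromosomes of assembly GRCr8. Of 10435 placed genes 541 were called, and 55 pairs of neighbours were both called, 33 of them in 1 direction. Chromosome 20 had the highest share, 29 of 299 genes (9.7%), followed by chromosome 13 (8.17%) and chromosome 2 (7.38%), and among the chromosomes other than Y, where 2 genes were placed and 0 called, chromosome 18 had the lowest (3.16%). There were 7 runs of at least 3 called neighbours. On chromosome 20 the run RT1-CE16, RT1-CE12, RT1-CE10 and RT1-CE5 was followed by a run of Ltb, Lst1 and Aif1, the latter 3 genes all lower in SHR. Lst1, a leukocyte protein, read 42.4, 33, 29.7, 46 and 32.4 in the SHR pools and 74.2, 144, 87.1, 90.3 and 85.2 in the WKY pools (log2 -1.07, adjusted p = 7.83e-05), and Ltb, lymphotoxin beta, fell by 0.42 (0.0128), a call lost with all 23 arrays in 1 model (0.0954). Aif1 marks microglia, whose summed markers were lower in SHR, and this part in the run was not tested.

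The other runs mixed directions except 1. On chromosome 5 Matn1, a cartilage matrix protein (log2 0.80, adjusted p = 0.00645), Ptpru, a receptor tyrosine phosphatase (log2 0.64, adjusted p = 0.00179), and Mecr, near the threshold, all rose. The pools of Matn1 overlapped. Also on chromosome 5, Plekhf2 fell by 0.65 (adjusted p = 4.08e-05) next to Ccne2 and Dpy19l4, which rose by 0.54 (0.000532). On chromosome 2 Atg10, of autophagosome formation, rose by 0.55 (0.00146) and Zcchc9 by 0.55 (0.00501) on either side of Ssbp2, and Lrat, which esterifies retinol, rose by 0.52 (0.00616) beside the guanylate cyclase pair Gucy1b1 and Gucy1a1. On the X chromosome Egfl6 fell by 0.63 (0.00076), and Rab9a, of endosome to Golgi transport, rose by 0.55 (0.000149) beside Trappc2 (0.24, 0.0133). The count of called neighbours depended on the arrays: it was 35 without SHR array 3 and 36 without WKY array 1 or WKY array 5.

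**Figure D4:**
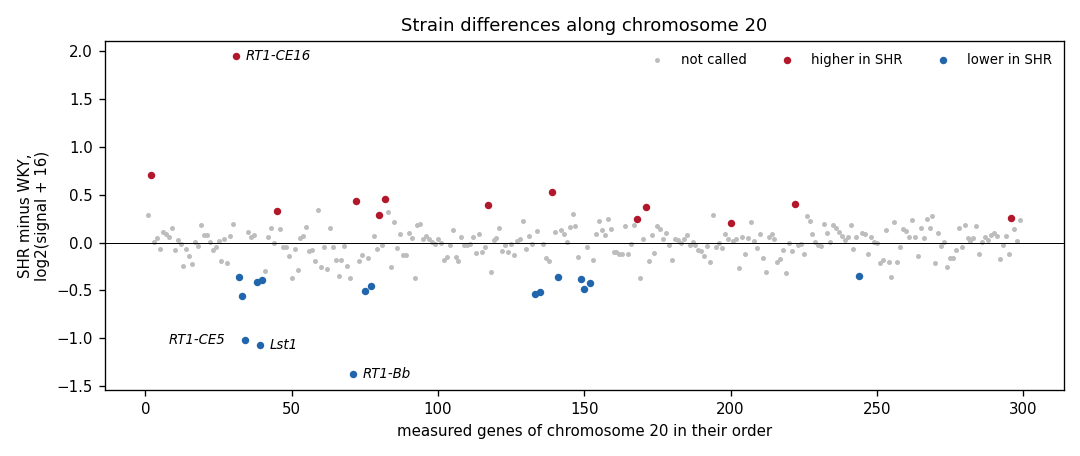
Log2 difference between SHR and WKY (vertical axis) of the 299 measured genes of chromosome 20 in their order (horizontal axis). Each point is a gene, red where higher, blue where lower in SHR and grey where not called, 29 being called. RT1-CE16 stands near 1.94, and RT1-CE5, Lst1 and RT1-Bb lie below -1.

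The Sprague Dawley controls gave each difference another level. Their arrays carry another label text and were deposited apart, so strain and hybridisation series cannot be told apart for them. Summed choroid plexus markers were 1772 to 9896 in these controls, against 1226 to 1372 in SHR and 823 to 999 in WKY. The part of the dissection in these levels was not tested. Over the 954 calls the Sprague Dawley mean was nearer to SHR in 488 and nearer to WKY in 466 (48.8%). It lay between the strains in 507 (53.1%), against 20.7% of all kept probe sets. The calls were chosen for strain means that lie apart, so a larger share between them follows from the choice. Among the 61 calls of at least 2-fold, the Sprague Dawley arrays overlapped the WKY arrays alone in 19, the SHR arrays alone in 20 and neither in 22.

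Individual genes took all these patterns. Ephx2 at 23.4 ± 9.1 and Zfp597, a zinc finger gene, at 51 ± 2.3 were near WKY, as were Rab8b at 213 ± 31.2, Rlbp1 at 158 ± 19.7, Stat3 at 168 ± 23.9 and C1r at 186 ± 31.3. Agtrap at 77.8 ± 6.2, Actr8 at 232 ± 32.2, Creg1 at 208 ± 17.2, Lst1 at 39.4 ± 12.2, Gatm at 356 ± 25.6 and Slc6a8 at 593 ± 151 were near SHR. Prss35, a secreted serine protease homologue (31.7 ± 5.2 in SHR and 249.5 ± 11.3 in WKY), and Terf2ip lay between, at 144 ± 24.4 and 757 ± 97. Spp1 at 449.7 ± 59.9 and Pygm at 64.9 ± 9.8 were below both strains, and Chi3l1 at 239 ± 9.1 and Rragd at 109 ± 11.7 above both.

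**Figure D5:**
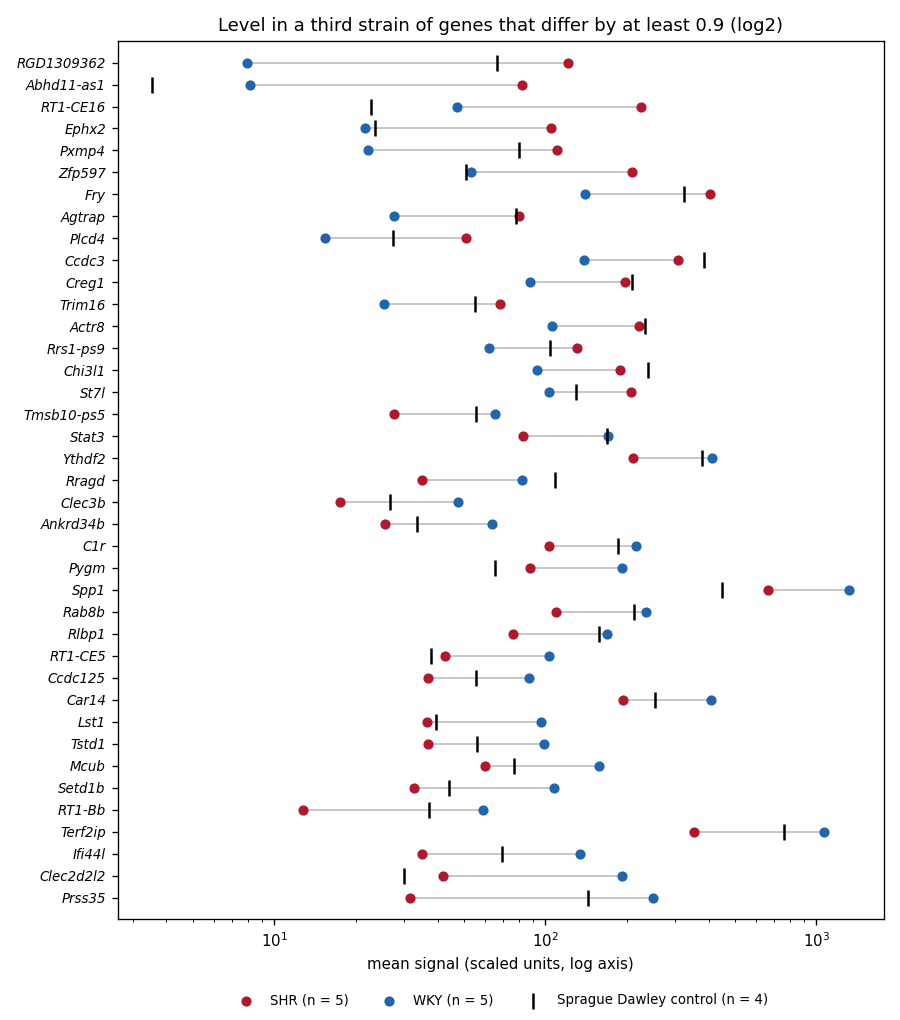
Mean signal (horizontal log axis, scaled units) in SHR (red, n = 5), WKY (blue, n = 5) and Sprague Dawley controls (black tick, n = 4) for the 39 named genes, 16 higher and 23 lower in SHR, that were called, did not overlap and differed by at least 0.9 on the log2 scale. The tick falls at the SHR end for some genes such as Agtrap, at the WKY end for others such as Ephx2, and outside both for Spp1 and Rragd.

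Calls with an adjusted p at or above 0.0152 depended in part on single arrays, and no call below it did. Of the 954 calls 616 remained in all 10 fits that left out 1 array, and of the 176 called genes examined here 131 did. Among the genes of vessels and angiotensin, Npr1 (log2 -0.30, adjusted p = 0.0273) lost the call without SHR 3, SHR 4, WKY 1, WKY 2, WKY 3 or WKY 4, its adjusted p running from 0.0243 to 0.0768 over the 10 omissions. Ptgs2, the inducible cyclooxygenase (log2 -0.58, adjusted p = 0.0184) lost the call without SHR 3, SHR 5, WKY 1 or WKY 2, its adjusted p running from 0.00725 to 0.0572 over the 10 omissions. Tbxas1, thromboxane synthase (log2 -0.32, adjusted p = 0.0377) lost the call without SHR 3, SHR 4, SHR 5, WKY 1, WKY 2, WKY 3 or WKY 5, its adjusted p running from 0.0213 to 0.103 over the 10 omissions. Mas1, the receptor of angiotensin 1-7 (log2 -0.25, adjusted p = 0.0499) lost the call without SHR 2, SHR 3, SHR 4, SHR 5, WKY 1, WKY 2, WKY 3, WKY 4 or WKY 5, its adjusted p running from 0.047 to 0.119 over the 10 omissions. For the guanylate cyclase subunits that sense nitric oxide, Gucy1a1 (log2 0.25, adjusted p = 0.0442) lost the call without SHR 1, SHR 2, SHR 4, WKY 1, WKY 2, WKY 4 or WKY 5, its adjusted p running from 0.0163 to 0.114 over the 10 omissions, with -0.04 (0.911) at its other probe set. Gucy1b1 (log2 -0.30, adjusted p = 0.0456) lost the call without SHR 1, SHR 3, SHR 5, WKY 2, WKY 3 or WKY 5, its adjusted p running from 0.0272 to 0.129 over the 10 omissions, with -0.17 (0.23) at its other probe set. Each of these vascular and cyclase genes lost its call in several omissions.

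In the immune lists, B2m, the light chain of class I molecules (log2 -0.22, adjusted p = 0.0336) lost the call without SHR 1, SHR 3, SHR 4, SHR 5, WKY 1 or WKY 2, its adjusted p running from 0.0253 to 0.0916 over the 10 omissions, with -0.23 (0.0445) at its other probe set. RT1-CE12 (log2 -0.36, adjusted p = 0.0227) lost the call without SHR 1, SHR 2, SHR 3, WKY 3 or WKY 5, its adjusted p running from 0.0154 to 0.0691 over the 10 omissions. Aif1 (log2 -0.39, adjusted p = 0.027) lost the call without SHR 3, SHR 4, SHR 5, WKY 1, WKY 2 or WKY 5, its adjusted p running from 0.0106 to 0.0779 over the 10 omissions, with -0.08 (0.822) at its other probe set. Gpr84, a receptor of medium-chain fatty acids on microglia (log2 -0.48, adjusted p = 0.0363) lost the call without SHR 1, SHR 2, SHR 3, WKY 1, WKY 3, WKY 4 or WKY 5, its adjusted p running from 0.0121 to 0.0954 over the 10 omissions. Tgfbr1, a receptor of TGF-beta (log2 -0.26, adjusted p = 0.0251) lost the call without SHR 3, SHR 4, SHR 5, WKY 2, WKY 3 or WKY 4, its adjusted p running from 0.0151 to 0.0683 over the 10 omissions. In the matrix list, Hspg2, the basement membrane proteoglycan perlecan (log2 -0.31, adjusted p = 0.0431) lost the call without SHR 1, SHR 3, SHR 5, WKY 1, WKY 2, WKY 3, WKY 4 or WKY 5, its adjusted p running from 0.0326 to 0.102 over the 10 omissions. None of these genes changed by more than 0.5 on the log2 scale.

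Among neuronal and transmitter genes, Gphn, the gephyrin scaffold of inhibitory synapses (log2 0.27, adjusted p = 0.049) lost the call without SHR 1, SHR 2, SHR 3, SHR 4, WKY 1, WKY 3, WKY 4 or WKY 5, its adjusted p running from 0.0237 to 0.121 over the 10 omissions. Gria1, an AMPA receptor subunit (log2 0.26, adjusted p = 0.044) lost the call without SHR 1, SHR 2, SHR 3, SHR 4, WKY 1, WKY 2, WKY 3 or WKY 5, its adjusted p running from 0.0144 to 0.116 over the 10 omissions. Gad2, which makes GABA (log2 0.46, adjusted p = 0.0496) lost the call without SHR 1, SHR 2, SHR 3, SHR 4, SHR 5, WKY 1, WKY 2, WKY 3 or WKY 5, its adjusted p running from 0.0399 to 0.127 over the 10 omissions. Kcnip3, a calcium sensor of potassium channels (log2 -0.51, adjusted p = 0.0363) lost the call without SHR 1, SHR 2, SHR 3, WKY 1, WKY 2, WKY 4 or WKY 5, its adjusted p running from 0.0117 to 0.096 over the 10 omissions. Slc6a9, the glycine transporter GlyT1 (log2 -0.84, adjusted p = 0.0371) lost the call without SHR 1, SHR 2, SHR 3, SHR 4, WKY 1, WKY 3, WKY 4 or WKY 5, its adjusted p running from 9.99e-05 to 0.0904 over the 10 omissions, with -0.20 (0.629) at its other probe set. Atp2b3 (log2 -0.27, adjusted p = 0.0368) lost the call without SHR 1, SHR 3, SHR 4, WKY 3, WKY 4 or WKY 5, its adjusted p running from 0.0281 to 0.0998 over the 10 omissions. Pts, of tetrahydrobiopterin synthesis (log2 0.26, adjusted p = 0.0465) lost the call without SHR 1, SHR 3, SHR 4, WKY 1, WKY 2, WKY 3, WKY 4 or WKY 5, its adjusted p running from 0.0403 to 0.121 over the 10 omissions. The adhesion genes behaved alike: Sema5a (log2 -0.28, adjusted p = 0.0331) lost the call without SHR 2, SHR 3, SHR 4, SHR 5, WKY 1, WKY 3, WKY 4 or WKY 5, its adjusted p running from 0.0164 to 0.089 over the 10 omissions, with -0.26 (0.163) at its other probe set, and Plxnb1 (log2 -0.32, adjusted p = 0.0243) lost the call without SHR 1, SHR 4, SHR 5 or WKY 5, its adjusted p running from 0.0186 to 0.0668 over the 10 omissions, with -0.15 (0.58) and -0.11 (0.663) at its other probe sets. Ntm (log2 0.22, adjusted p = 0.0404) lost the call without SHR 1, SHR 2, SHR 5, WKY 1, WKY 2, WKY 3, WKY 4 or WKY 5, its adjusted p running from 0.0356 to 0.102 over the 10 omissions, and its other probe set fell by 0.29 (adjusted p = 0.0169).

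Of metabolic genes, Gsta1 (log2 -0.24, adjusted p = 0.0166) lost the call without SHR 1 or SHR 3, its adjusted p running from 0.00752 to 0.0554 over the 10 omissions. Scd, a fatty acid desaturase (log2 -0.52, adjusted p = 0.0312) lost the call without SHR 2, SHR 4, WKY 3 or WKY 4, its adjusted p running from 0.0122 to 0.0897 over the 10 omissions. Agpat3, an acyltransferase (log2 -0.36, adjusted p = 0.0251) lost the call without SHR 1, SHR 4, SHR 5, WKY 1 or WKY 5, its adjusted p running from 0.00848 to 0.0779 over the 10 omissions, with 0.10 (0.578) and 0.11 (0.647) at its other probe sets. Pdk3, a kinase that slows pyruvate dehydrogenase (log2 -0.29, adjusted p = 0.0332) lost the call without SHR 1, SHR 3, SHR 5, WKY 1, WKY 2 or WKY 5, its adjusted p running from 0.0263 to 0.0964 over the 10 omissions, with -0.21 (0.266) at its other probe set. Slc16a1, the lactate transporter MCT1 (log2 0.37, adjusted p = 0.0193) lost the call without WKY 2 or WKY 3, its adjusted p running from 0.0103 to 0.0579 over the 10 omissions. Rpl21 (log2 0.24, adjusted p = 0.0193) lost the call without SHR 3, SHR 4, WKY 2 or WKY 4, its adjusted p running from 0.00456 to 0.0676 over the 10 omissions. Psma1 (log2 -0.21, adjusted p = 0.0386) lost the call without SHR 1, SHR 2, SHR 4, SHR 5, WKY 1, WKY 2, WKY 3, WKY 4 or WKY 5, its adjusted p running from 0.0205 to 0.1 over the 10 omissions. These calls rested on differences of 0.21 to 0.52 in size.

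For growth and chromatin, Ccnd3, a D-type cyclin (log2 0.46, adjusted p = 0.0434) lost the call without SHR 2, SHR 3, SHR 4, SHR 5, WKY 1, WKY 3 or WKY 4, its adjusted p running from 0.00287 to 0.114 over the 10 omissions. Ccne2, a cyclin of S phase entry (log2 0.39, adjusted p = 0.0468) lost the call without SHR 1, SHR 2, SHR 3, SHR 4, WKY 1, WKY 3, WKY 4 or WKY 5, its adjusted p running from 0.0113 to 0.121 over the 10 omissions, with -0.13 (0.586) at its other probe set. Bub3, of the mitotic checkpoint (log2 0.20, adjusted p = 0.0439) lost the call without SHR 1, SHR 2, SHR 3, SHR 4, SHR 5, WKY 1, WKY 2, WKY 3 or WKY 4, its adjusted p running from 0.0382 to 0.111 over the 10 omissions, with 0.03 (0.946) at its other probe set. Crebbp, a histone acetyltransferase (log2 0.41, adjusted p = 0.0205) lost the call without SHR 4 or WKY 2, its adjusted p running from 0.0073 to 0.0576 over the 10 omissions, with 0.10 (0.906) and -0.18 (0.377) at its other probe sets. Smarca1, an ISWI remodeller (log2 0.23, adjusted p = 0.0238) lost the call without SHR 3, WKY 2 or WKY 4, its adjusted p running from 0.0332 to 0.0661 over the 10 omissions. Ssbp2 (log2 -0.36, adjusted p = 0.0221) lost the call without SHR 3 or WKY 2, its adjusted p running from 0.017 to 0.0672 over the 10 omissions, with 0.10 (0.676) at its other probe set. Mecr, of mitochondrial fatty acid synthesis (log2 0.41, adjusted p = 0.0363) lost the call without SHR 1, SHR 3, SHR 5, WKY 1, WKY 2, WKY 4 or WKY 5, its adjusted p running from 0.0193 to 0.108 over the 10 omissions. Fam168a, the remaining gene among the 20 rises ranked 13 to 32 (log2 0.84, adjusted p = 0.0344) lost the call without SHR 1, SHR 3, WKY 1, WKY 2, WKY 3, WKY 4 or WKY 5, its adjusted p running from 0.00525 to 0.089 over the 10 omissions.

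The last group were cytoskeletal and signalling genes. Tpm1, a tropomyosin (log2 0.32, adjusted p = 0.0174) lost the call without SHR 3 or WKY 5, its adjusted p running from 0.0156 to 0.0572 over the 10 omissions. Its 4 other probe sets had negative differences of -0.32, -0.19, -0.21 and -0.35 that were not called. Tuba4a, an alpha tubulin (log2 0.32, adjusted p = 0.0461) lost the call without SHR 1, SHR 3, SHR 4, SHR 5, WKY 3 or WKY 4, its adjusted p running from 0.032 to 0.117 over the 10 omissions. Myh9, a nonmuscle myosin (log2 -0.52, adjusted p = 0.0415) lost the call without SHR 3, WKY 1, WKY 2, WKY 3, WKY 4 or WKY 5, its adjusted p running from 0.029 to 0.105 over the 10 omissions. Gsn, gelsolin (log2 -0.34, adjusted p = 0.0393) lost the call without SHR 3, SHR 4, SHR 5, WKY 1, WKY 2, WKY 3 or WKY 5, its adjusted p running from 0.0137 to 0.108 over the 10 omissions. Ppp2r2b (log2 0.26, adjusted p = 0.0243) lost the call without SHR 3, SHR 5 or WKY 1, its adjusted p running from 0.0185 to 0.0745 over the 10 omissions. Cul4b (log2 0.31, adjusted p = 0.0171) lost the call without SHR 3 or SHR 4, its adjusted p running from 0.00633 to 0.0558 over the 10 omissions, with 0.02 (0.965) at its other probe set. Usp8 (log2 0.26, adjusted p = 0.0336) lost the call without SHR 1, SHR 4, SHR 5, WKY 1, WKY 2, WKY 3 or WKY 5, its adjusted p running from 0.0227 to 0.0868 over the 10 omissions, with -0.23 (0.267) at its other probe set. Ttll1, a tubulin glutamylase (log2 -0.40, adjusted p = 0.0449) lost the call without SHR 1, SHR 2, SHR 3, SHR 4, WKY 1, WKY 2, WKY 3, WKY 4 or WKY 5, its adjusted p running from 0.028 to 0.123 over the 10 omissions. No called probe set changed sign when an array was left out.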

How the data were processed

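Total RNA from pooled area postrema was amplified with a MessageAmp II kit and hybridised to Affymetrix Rat Genome 230 2.0 arrays, per the labels' protocols. The deposited intensity values are linear signals that the authors made with GCOS 1.2, per the submitters' processing notes, whose settings the sources used here do not state. On every array the mean left after trimming 2% at each end was 100.0, so the deposited values were used without further normalization. Signal over background and the number of arrays limit the precision.

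Groups came from the sample titles, and the first array of each strain, whose title has no number, was counted as array 1. The table held 31099 probe sets, 57 of them controls. Of the others 20826 had 1 gene symbol, 436 several and 9780 none, and 0 columns lacked a sample. Symbols came from the platform annotation and were updated through a gene table of assembly GRCr8 by gene identifier for 20758 and by accession for 2, with 66 left as given. Promoters came from RefSeq (GRCr8). Signals were transformed as log2(signal + 16), and probe sets with a mean below the 40th percentile (29.53) were left out. Each gene was represented by its brightest probe set. SHR and WKY were compared by the limma test (lmFit, then eBayes with trend and robust settings, limma 3.58.1, R 4.3.3), two-sided, with Benjamini-Hochberg adjustment over the 18625 probe sets kept and a threshold of 0.05. On simulated data for this comparison of 18625 probe sets, 73% of log2 shifts of 0.5 and 99% of shifts of 1 were recovered, with 11 false calls. The simulated noise was normal and independent between probe sets, without the split between arrays seen in the data. These figures therefore need not hold for the real arrays. Python 3.11.15 with numpy 2.4.6, pandas 2.3.3 and matplotlib 3.10.9 was used for the rest.

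The genes named are those ranked 13 to 32 by size in each direction among called genes without overlap, up to 4 called members of each list with the smallest p, called genes at every 100th rank by p, 10 genes with the largest agreement between probe sets, the runs of called neighbours, the 10 most even genes with a mean signal of at least 200, and a fixed panel of the tissue. The 12 largest changes are named where values of arrays or other probe sets are added. Members and lists were chosen with earlier results of these data known, and the count of a list is a description that was not tested. Alternatives changed the normalization, the pseudocount (1 or 64), the filter (none or the 60th percentile), the variance model, array weights, blocks, the Gapdh ratio as a covariate, the arrays in the fit and the reading of genes with several probe sets, and left out each array in turn.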

Additional observations from a re-analysis of the deposited data

Results flagged for a closer look

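In each strain of 5 pools the highest or lowest array was checked for a gap to its nearest neighbour above 0.71 of the group's range. This was met in 24 of 496 groups of the 248 genes examined (4.84%), about the 1 in 20 that chance gives. No explanation was tested for any of them.

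Actr8 read 93.9 in WKY array 1 and 107.6 to 110.5 in the other WKY arrays. For Rrs1-ps9 the highest SHR value was 145.4 (array 3), with the rest at 126.8 to 129.3. WKY array 4 stood at 771.7 for Gabarapl1, against 685.7 to 707.1. Tstd1 read 77.2 in WKY array 2 and 99 to 107.6 in the other WKY arrays. For Me1 the highest WKY value was 1151.7 (array 2), with the rest at 1027.1 to 1051.7. SHR array 3 stood at 121.7 for Lpar1, against 163.9 to 180. Plekhf2 read 70.3 in SHR array 5 and 86.5 to 93.4 in the other SHR arrays. For Lst1 the highest WKY value was 144.2 (array 2), with the rest at 74.2 to 90.3. SHR array 4 stood at 130.3 for Dpy19l4, against 109.1 to 114.3. Plcd4 read 2.4 in WKY array 2 and 15.1 to 21.5 in the other WKY arrays. For Col1a2 the lowest WKY value was 1589.6 (array 4), with the rest at 1981.5 to 2111.1. SHR array 4 stood at 24.3 for Acan, against 32.1 to 33.9.

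Nedd4l read 117.5 in SHR array 3 and 138 to 145.7 in the other SHR arrays. For Gstt3 the lowest WKY value was 182.2 (array 3), with the rest at 200.9 to 205. WKY array 4 stood at 6.1 for Agtrap, against 29.5 to 38.4. RT1-CE10 read 23.4 in SHR array 2 and 36.2 to 39.6 in the other SHR arrays. For Ppp2r2b the lowest WKY value was 355.1 (array 1), with the rest at 390.4 to 402.5. WKY array 1 stood at 55.7 for Ttll1, against 37.1 to 41.6. Tubb3 read 506.3 in WKY array 2 and 414.8 to 434.8 in the other WKY arrays. For Folr1 the highest SHR value was 67.8 (array 3), with the rest at 35 to 38.2. WKY array 4 stood at 209.6 for Gal, against 130 to 148.4. Mag read 79.7 in SHR array 5 and 47.2 to 51.4 in the other SHR arrays. For Hnrnpa2b1 the lowest WKY value was 1286.3 (array 5), with the rest at 1371.1 to 1390.3. SHR array 3 stood at 308.7 for Th, against 370.7 to 393.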

How the results depend on the processing

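The count of calls stayed within 1.5 times of 954 under every alternative run. It was 971 with quantile normalization, 933 and 966 with pseudocounts of 1 and 64, 860 with no filter, 774 with the filter at the 60th percentile, 818 without trend and robust settings, 955 with array weights, 711 with the Gapdh ratio as a covariate and 912 with all 23 arrays, and it ran from 753 to 1025 when single arrays were left out. Of the 954 calls 676 remained with the Gapdh ratio and 741 with no filter, and none changed sign in these fits. Same-numbered arrays of the strains had deviations that correlated at 0.164, 0.281, 0.024, -0.003 and 0.04, and SHR arrays 3, 4 and 5 each correlated best with a WKY array of another number, so the numbers were not taken as pairs, although arrays 1 and 2 of both strains stood apart from arrays 3 to 5. With the replicate number as a block 1072 probe sets were called (453 higher, 619 lower), and blocking on the split between arrays 1 and 2 and the later ones gave 1175, 952 of the 954 among them.

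Pairs of called neighbours fell from 55 to 33 with no filter and to 33 with the Gapdh ratio, and ranged from 35 to 53 with single arrays left out. Genes with every probe set called fell from 31 to 19 with no filter, where more probe sets were tested. When all probe sets of a gene were averaged, 518 of 10472 genes were called, and 2 genes reversed, Tpm1 to -0.15 (adjusted p = 0.396) and Ntm to -0.03 (adjusted p = 0.794), their probe sets having opposite signs. Below the filter, 116 of 12417 probe sets were called in the fit with no filter.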
